A study of Mus musculus with 8 samples.

Results

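Transcripts of B cells were measured in RNA from peritoneal macrophages (pMacs) through 9 genes of the B lineage, *Cd79a*, *Cd79b*, *Ms4a1*, *Ighm*, *Ighd*, *Igkc*, *Cd22*, *Pax5* and *Fcer2a*. The genes were chosen by symbol for their known expression in B cells and were matched to Ensembl identifiers in the GRCm38 annotation. They are 9 of the 48795 genes with a value, and all 9 were among the 13040 genes that passed the filter on low counts. Polyadenylated RNA was sequenced from 4 WT mice (C57BL/6) and 4 CD1d-KO mice, with 1 library per mouse and the replicate numbers 1, 2, 3 and 5 in each genotype. The labels name the cells peritoneal macrophages from peritoneal lavage and give no treatment. The methods name a germline deletion of *Cd1d1* and *Cd1d2* and a cross of floxed *Cd1d* mice with a ubiquitous PGK Cre as CD1d-KO strains, without saying which of them gave the RNA. Young adult mice matched for age and sex were used, with littermates as controls, and which libraries share a litter is not stated. Enrichment of pMacs with F4/80 magnetic beads is described for stimulation experiments, whereas the RNA method does not state how pMacs were purified.

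A B cell recognises antigen through a membrane immunoglobulin, whose heavy and light chains are assembled from variable segments and a constant region and which signals through the partner chains CD79A and CD79B. The peritoneal cavity holds B cells beside its macrophages, among them B-1 cells, which carry mostly IgM, secrete natural antibody and often use a small set of variable segments with little change from the germline. Rearranged immunoglobulin genes and the transcription factor PAX5 are properties of the B lineage and not of macrophages.

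All 9 genes were detected in all 8 libraries, and the highest library of a gene lay 6.23- to 11.8-fold above its lowest. The genotype test called 0 of 9 genes, against 0.0383% of all genes tested. The 9 genes summed to 138.5 CPM (counts scaled to a fixed library total) in CD1d-KO replicate 2 and to 1061 CPM in CD1d-KO replicate 5, a 7.66-fold range within 1 genotype. For every gene, replicate 2 was the lowest library of its genotype. Ratios to *Cd79a* varied less between the libraries than the levels did, and that of *Fcer2a* was the most uneven. Counts on variable segments were led by *Ighv11-2* and *Igkv14-126*, the pair of segments known from B-1 cell receptors that bind phosphatidylcholine.

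Between 13698864 and 19059432 expected counts fell on genes in a library. The deleted gene *Cd1d1* had 80 to 163 expected counts in the WT libraries and 0 to 1 in CD1d-KO replicates 2, 3 and 5. The library labelled CD1d-KO replicate 1 had 80, which goes against its label, and the genotype differences of the 9 genes and their sums are given with and without pair 1. Macrophage identity was clear in all libraries. The 8 macrophage markers, among them *Csf1r* and *Lyz2*, summed to between 21430 and 27900 CPM, and each of the 10 markers of large peritoneal macrophages was detected in every library. Levels of single genes are given as normalized CPM, which are CPM scaled with the TMM factors of edgeR, and sums over genes as plain CPM.

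The most abundant variable segments are shown first, because the choice of segments is a known mark of B-1 cells. Of 185 heavy chain segments in the annotation, 108 had a count, and *Ighv11-2* alone took 27.6% of all heavy chain variable counts against 6.49% for the next, *Ighv6-3*. Of 160 kappa segments, 101 had a count, and *Igkv14-126* took 33.8% against 7.67% for *Igkv1-117*. The sequences are the longest exon of each segment, or its last 300 bases, on GRCm38, for *Ighv11-2* at chr12:114048241-114048540 on the minus strand and for *Igkv14-126* at chr6:67896345-67896642 on the plus strand. Capitals mark the bases that differ from the most similar other segment, which is *Ighv11-1* for the first and another member of the *Igkv14* family for the other, when both are compared base by base from the 3′ end.
Ighv11-2: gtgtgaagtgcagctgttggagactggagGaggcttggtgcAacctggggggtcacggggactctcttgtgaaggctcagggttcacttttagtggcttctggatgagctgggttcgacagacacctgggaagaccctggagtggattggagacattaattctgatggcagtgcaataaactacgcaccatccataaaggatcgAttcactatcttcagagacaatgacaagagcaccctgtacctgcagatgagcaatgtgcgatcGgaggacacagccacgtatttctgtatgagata
Igkv14-126: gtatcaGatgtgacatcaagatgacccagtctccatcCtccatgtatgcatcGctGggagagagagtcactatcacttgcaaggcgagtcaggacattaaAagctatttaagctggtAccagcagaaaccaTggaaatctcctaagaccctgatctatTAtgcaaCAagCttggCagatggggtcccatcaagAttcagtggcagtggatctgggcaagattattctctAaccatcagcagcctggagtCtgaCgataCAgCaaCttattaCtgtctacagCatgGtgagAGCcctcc

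The sequence of *Ighv11-2* differs from *Ighv11-1* at 4 of 300 bases (98.7% identity), and the single-end reads are much shorter than these sequences, so that many reads cannot tell the pair apart. RSEM gave 1052 counts to *Ighv11-2* and 5 to *Ighv11-1* over the 8 libraries, a division that is uncertain for reads without 1 of the 4 capitals. *Igkv14-126* differs from its nearest family member at 27 of 298 bases (90.9% identity), with 1413 and 48.0 counts.

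In WT replicates 1, 2, 3 and 5, *Ighv11-2* took 14.1%, 18.4%, 47.1% and 28.6% of heavy chain variable counts. The shares in CD1d-KO replicates 1, 2, 3 and 5 were 16.3%, 21.5%, 29.6% and 43.0%. The genotypes overlapped, and replicate 1 was lowest in both. *Igkv14-126* placed the 8 libraries in the same order, with 18.4%, 29.1%, 53.2% and 33.1% of kappa counts in WT and 20.2%, 32.8%, 33.2% and 43.9% in CD1d-KO replicates 1, 2, 3 and 5. Both segments were highest in WT replicate 3 and second highest in CD1d-KO replicate 5. The counts behind a share ranged from 135 to 817 for the heavy chain and from 134 to 1068 for kappa. Wilson 95% intervals, which cover counting error only, ran from 42.03% to 52.3% for *Ighv11-2* in WT replicate 3 and from 11.7% to 16.9% in WT replicate 1. The mean difference of CD1d-KO from WT was 0.55 percentage points for *Ighv11-2* (SD 13.3 over 4 pairs) and -0.95 points for *Igkv14-126* (SD 13.3). Each share was higher in CD1d-KO in 3 of 4 pairs, and a two-sided exact sign-flip permutation test over the pairs gave p = 1.0 for both, where the smallest p it allows is 0.125. Without pair 1 the differences were -0.0063 and -1.85 points. These 2 segments were singled out after their counts were seen.

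**Figure D1:**
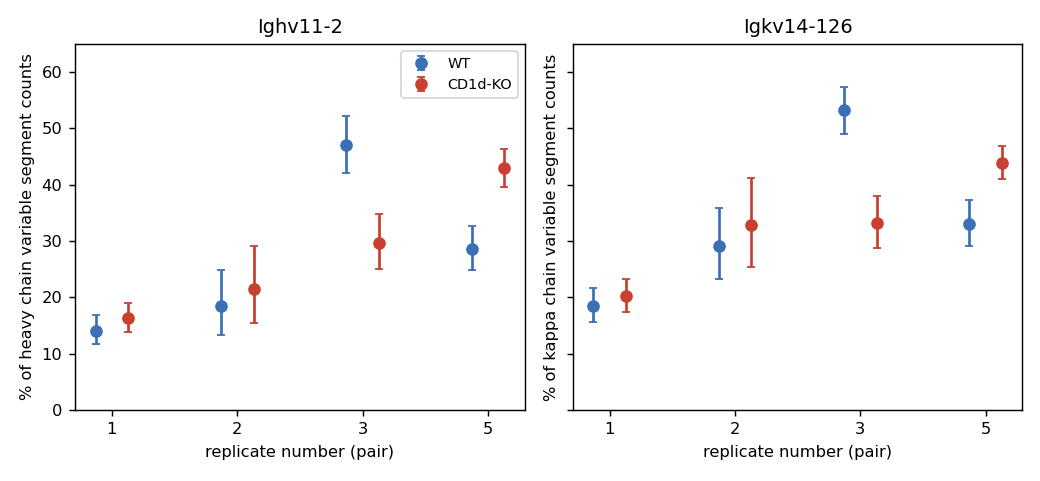
Share of *Ighv11-2* among heavy chain (left) and of *Igkv14-126* among kappa chain (right) variable segment counts, in percent, by replicate number, with WT in blue and CD1d-KO in red. Points are single libraries and bars are Wilson 95% intervals of the counts. Both segments are lowest in replicate 1 and highest in WT replicate 3, at 47.1% and 53.2%.

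Among the signalling chains of the receptor, *Cd79a* (ENSMUSG00000003379, chromosome 7 from 24897381 to 24902197) had 45.6, 17.2, 32.5 and 50.7 normalized CPM in WT replicates 1, 2, 3 and 5 and 55.8, 9.23, 34.3 and 77.2 in CD1d-KO replicates 1, 2, 3 and 5. The CD1d-KO libraries held both the lowest and the highest value and enclosed all WT libraries. Its log2 fold change of CD1d-KO over WT was 0.09 ± 0.20, where ± gives the standard error of a log2 fold change (adjusted p = 0.911, quasi-likelihood test of edgeR with replicate number as block and Benjamini-Hochberg adjustment over all tested genes). *Cd79b* (ENSMUSG00000040592, chromosome 11 from 106311341 to 106314762), the other signalling chain, had 36.6, 14.1, 24.0 and 38.2 normalized CPM in the WT libraries and 49.2, 7.38, 24.0 and 62.3 in the CD1d-KO libraries, in the same order. It was lowest and highest in the same libraries as *Cd79a* (log2 fold change 0.14 ± 0.22, edgeR adjusted p = 0.865).

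*Ighm* (ENSMUSG00000076617, chromosome 12 from 113418558 to 113422730) encodes the constant region of IgM and was the most abundant of the 9 genes. It had 291, 118, 272 and 322 normalized CPM in WT replicates 1, 2, 3 and 5 and 334, 84.7, 223 and 527 in the CD1d-KO libraries. Both replicate 2 libraries lay below the other 6, and CD1d-KO replicate 5 lay above all others. *Ighd* (ENSMUSG00000104213, chromosome 12 from 113406604 to 113416324), the constant region of IgD that mature B cells coexpress with IgM, had 10.4, 4.78, 8.53 and 16.2 normalized CPM in WT and 23.9, 2.58, 13.9 and 22.1 in CD1d-KO pMacs. *Igkc* (ENSMUSG00000076609, chromosome 6 from 70726435 to 70726966), the kappa light chain constant region, had 59.4, 27.0, 80.3 and 74.7 normalized CPM in WT and 75.0, 22.8, 59.1 and 149.8 in CD1d-KO pMacs. The genotypes overlapped for all 3 genes. *Ighd* had the largest log2 fold change of the 9 genes, 0.52 (standard error 0.27), with an adjusted p of 0.481 from edgeR, and was higher in CD1d-KO in 3 of 4 pairs. Without pair 1 its log2 fold change was 0.23 (adjusted p = 0.854 from edgeR). For *Ighm* the log2 fold change was 0.04 ± 0.18 (edgeR adjusted p = 0.955) and for *Igkc* 0.19 ± 0.22 (edgeR adjusted p = 0.787).

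*Ms4a1* (ENSMUSG00000024673, chromosome 19 from 11249675 to 11266241) encodes the B cell surface protein CD20. It had 24.6, 14.8, 31.1 and 29.9 normalized CPM in WT replicates 1, 2, 3 and 5 and 39.1, 7.01, 21.8 and 71.3 in the CD1d-KO libraries. *Cd22* (ENSMUSG00000030577, chromosome 7 from 30865402 to 30880342), an inhibitory coreceptor that binds sialic acid, had 31.0, 14.1, 25.0 and 44.4 normalized CPM in WT and 40.6, 6.05, 22.4 and 71.2 in CD1d-KO pMacs, the widest range of the 9 genes at 11.8-fold. Each genotype had its lowest value in replicate 2, and CD1d-KO replicate 5 was the highest library for both genes. Their log2 fold changes were 0.19 ± 0.34 (edgeR adjusted p = 0.883) for *Ms4a1* and 0.04 ± 0.26 (edgeR adjusted p = 0.971) for *Cd22*.

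*Pax5* (ENSMUSG00000014030, chromosome 4 from 44524757 to 44710487), the transcription factor that holds B cells to their lineage, had 24.2, 10.3, 18.3 and 30.2 normalized CPM in WT replicates 1, 2, 3 and 5 and 32.1, 5.54, 21.1 and 48.6 in CD1d-KO replicates 1, 2, 3 and 5. It ran almost in parallel with *Cd79a* (log2 fold change 0.20 ± 0.21, edgeR adjusted p = 0.769). *Fcer2a* (ENSMUSG00000005540, chromosome 8 from 3681737 to 3694175), the low-affinity IgE receptor CD23, which follicular B cells carry and B-1 cells largely lack, had 1.16, 0.69, 1.01 and 2.18 normalized CPM in WT and 3.13, 0.44, 1.21 and 0.57 in CD1d-KO pMacs. These values rest on 6 to 64 counts per library. *Fcer2a* was the only 1 of the 9 genes that was not highest or second highest in CD1d-KO replicate 5 (log2 fold change -0.06 ± 0.54, edgeR adjusted p = 0.978).

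**Figure D2:**
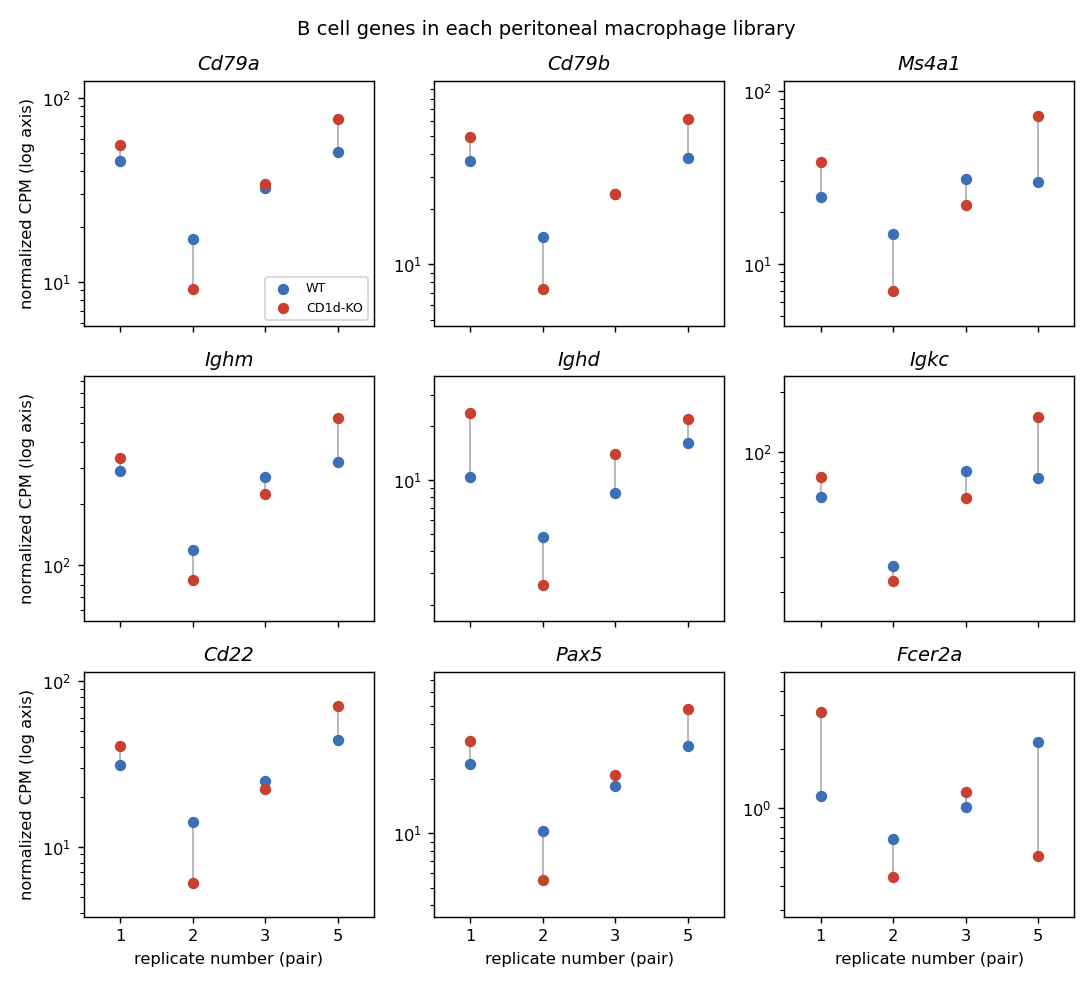
Normalized CPM (log axis) of the 9 B cell genes by replicate number, with WT in blue, CD1d-KO in red and a grey line joining the 2 libraries of a pair. Each point is 1 mouse, and for *Cd79b* the 2 points of pair 3 coincide at 24.0. Replicate 2 is the lowest library of each genotype for all 9 genes, and CD1d-KO replicate 5 is the highest library for 7 of them.

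Per length, in TPM (a value scaled to gene length and library), the genes of the receptor chains led. Mean levels over the 8 libraries were 277 TPM for *Ighm* (SD 155), 243 for *Igkc* (SD 149), 47.3 for *Cd79a* (SD 28.03) and 45.1 for *Cd79b* (SD 28.2). *Cd22* (18.5 TPM, SD 12.1), *Ms4a1* (16.3, SD 11.4), *Ighd* (12.4, SD 7.51), *Pax5* (7.37, SD 4.16) and *Fcer2a* (1.09, SD 0.85) followed. Each gene of this order was compared with the next within the libraries. *Igkc* lay above *Cd79a*, *Cd79b* above *Cd22*, *Ighd* above *Pax5*, and *Pax5* above *Fcer2a* in 8 of 8 libraries. The order was not uniform for the other neighbours, which held in 7 of 8 libraries for *Ighm* over *Igkc* and for *Cd79a* over *Cd79b*, in 6 for *Cd22* over *Ms4a1* and in 5 for *Ms4a1* over *Ighd*.

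A gene was called for genotype when its fold change exceeded 1.5 at an adjusted p under 0.01. The quasi-likelihood test of edgeR called 0 of the 9 genes, where it called 5 of the 13040 genes tested (0.0383%). At an unadjusted p under 0.05 it marked 0 of 9, against 12.4% of all genes, and DESeq2 also called 0 (0.795% of all genes). The adjusted p ranged from 0.481 to 0.978. The median log2 fold change of the 9 genes was 0.14, against 0.0047 over all genes tested. Without pair 1, 5 of the 9 log2 fold changes were above 0 and 4 below, with *Ms4a1* (-0.0099), *Ighm* (-0.014) and *Cd22* (-0.11) turned in sign, between -0.77 for *Fcer2a* and 0.23 for *Ighd*, and the adjusted p ranged from 0.714 to 0.996. Without pair 2, 4 of the 9 genes, *Ighd*, *Pax5*, *Cd79a* and *Cd79b*, had an unadjusted p under 0.05 (15.1% of all genes in that fit) and 0 were called (0.167%). The lowest adjusted p among them was 0.0647 for *Ighd* from edgeR, with a log2 fold change of 0.79.

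Taken pair by pair, the genotype difference changed its direction. In pair 1, 9 of 9 genes were higher in the library labelled CD1d-KO replicate 1 than in WT replicate 1, with a median log2 ratio of 0.41. In pair 2, 0 of 9 were higher in CD1d-KO (median -0.89). In pair 3 there were 4 of 9 (median -0.00029) and in pair 5 there were 8 of 9 (median 0.69). No member was higher in 4 of 4 pairs or lower in 4 of 4, which 20.7% of all tested genes were. Next to *Fcer2a*, the swing was widest for *Ms4a1*, with log2 ratios of 0.67, -1.08, -0.51 and 1.26 in pairs 1, 2, 3 and 5. *Fcer2a* had ratios of 1.43, -0.65 and 0.27 in pairs 1, 2 and 3 and went the other way from the rest in pair 5, with a log2 ratio of -1.94 against 0.45 to 1.26 for the other 8 genes.

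**Figure D3:**
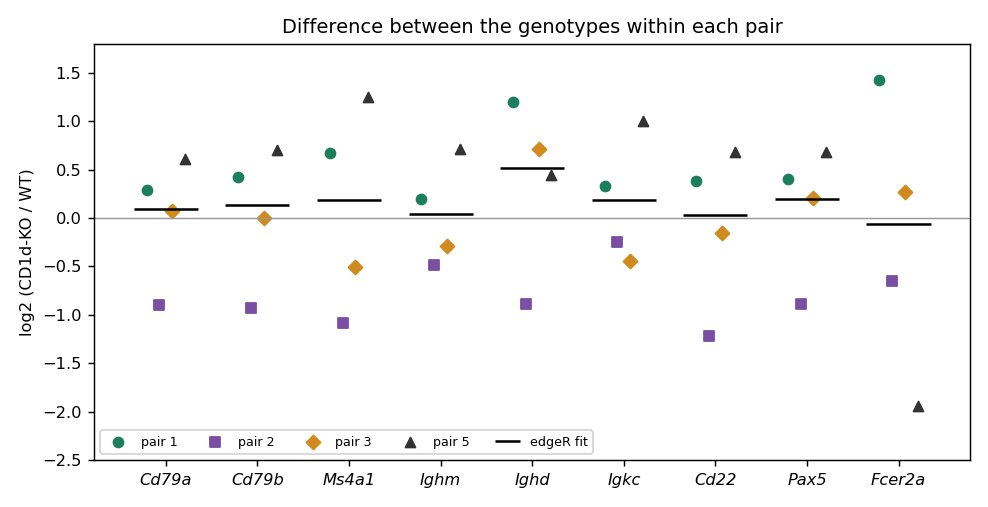
Log2 ratio of CD1d-KO to WT normalized CPM within pairs 1 (circles), 2 (squares), 3 (diamonds) and 5 (triangles) for each B cell gene, with the log2 fold change fitted by edgeR as a black bar. All 9 genes lie above 0 in pair 1 and below 0 in pair 2, and *Fcer2a* lies at -1.94 in pair 5 where the other 8 are above 0.

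Spread between the mice was large for these genes. The SD of the log2 level over the 8 libraries had a median of 0.99 for the 9 genes and of 0.26 for all genes tested, and only 4.63% of tested genes had an SD of 0.9 or more. CD1d-KO replicate 2 was the lowest of the 8 libraries for 9 of 9 genes, and WT replicate 2 was the lowest WT library for 9 of 9. For 6 of 9 genes replicate 2 lay below replicate 3, and replicate 3 below replicates 1 and 5, in both genotypes. That order, which was noticed in these values, held for 2.43% of all tested genes. A test of replicate number across both genotypes gave an adjusted p under 0.05 from edgeR for 7 of 9 genes (15.6% of all genes) and under 0.01 for 0 of 9 (3.93%). The adjusted p from edgeR for replicate number was 0.0114 for *Ighm*, 0.0116 for *Cd79a*, 0.0135 for *Pax5*, 0.0150 for *Cd79b*, 0.0177 for *Cd22*, 0.0187 for *Igkc* and 0.0278 for *Ighd*. *Ms4a1* (0.0846) and *Fcer2a* (0.335) did not pass. The labels do not say what a replicate number stands for.

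As a relative estimate of B cell RNA between the libraries, the 9 genes summed to 569, 216, 458 and 627 CPM in WT replicates 1, 2, 3 and 5 and to 716, 138.5, 380 and 1061 in the CD1d-KO libraries. With all other immunoglobulin genes added, the sum took between 0.0169% of the counts in CD1d-KO replicate 2 and 0.126% in CD1d-KO replicate 5. All other transcripts of B cells are left out of these sums, so they do not give the whole B cell RNA of a library. The log2 level of each gene was set against its mean over the 8 libraries, and the median of these deviations over the 9 genes was taken in each library. As a fold over the median of CD1d-KO replicate 2, it was 4.34, 1.85, 3.45 and 5.38 in WT replicates 1, 2, 3 and 5. In CD1d-KO replicates 1, 3 and 5 it was 5.80, 3.61 and 8.404. In bulk RNA, fewer B cells and less RNA per B cell cannot be told apart, and without a library of pure B cells these values are not shares of cells.

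Set against the macrophages of the same library, the summed TPM of the 6 members outside the immunoglobulin genes was 0.51%, 0.19%, 0.39% and 0.60% of the summed TPM of the 8 macrophage markers in WT replicates 1, 2, 3 and 5. The ratio was 0.66%, 0.11%, 0.42% and 1.19% in CD1d-KO replicates 1, 2, 3 and 5, a 10.8-fold range. WT pMacs had a mean ratio of 0.42% ± 0.18 (SD, n = 4) and CD1d-KO pMacs of 0.60% ± 0.46 (SD, n = 4), or 0.39% ± 0.21 and 0.57% ± 0.56 (SD, n = 3) without pair 1. The mean log2 ratio of CD1d-KO to WT over the pairs was 0.17 with an SD of 0.74, and 0.10 without pair 1. It was -0.43 with the markers of large peritoneal macrophages as denominator and -0.028 with *Lyz2* left out, so its direction depended on which macrophage genes were used. The 10 markers of large peritoneal macrophages themselves had a median log2 fold change of 0.37. For genotype, 6 of these 10 had an unadjusted p under 0.05 from edgeR (12.4% of all genes) and 0 were called (0.0383%). *Lyz2* made up most of the TPM of the 8 macrophage markers. Without it the ratio ran from 0.47% in CD1d-KO replicate 2 to 5.14% in CD1d-KO replicate 5. The summed counts of the 9 genes gave a mean log2 ratio of 0.04 (SD 0.62), and -0.05 without pair 1.

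**Figure D4:**
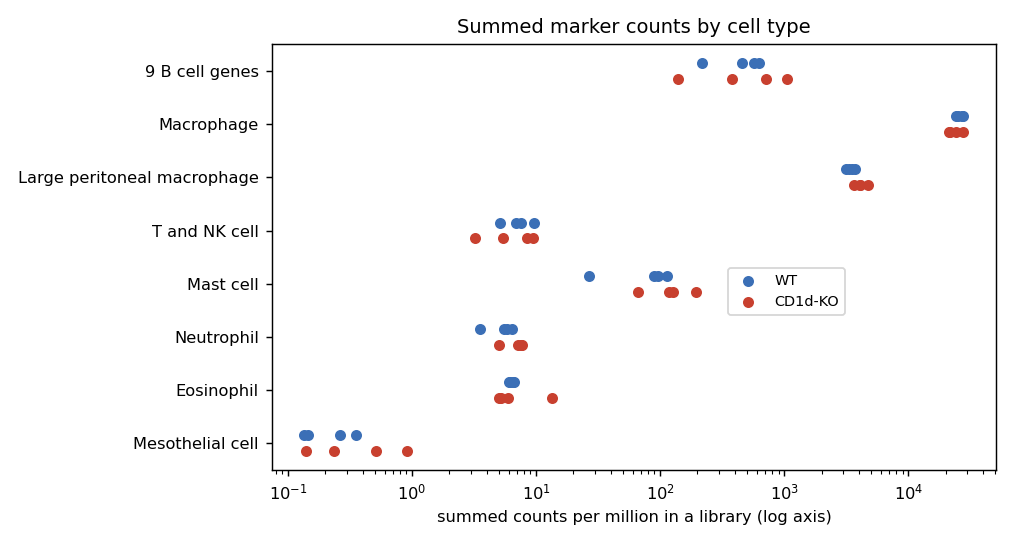
Summed CPM of each marker list in each library (log axis), with WT in blue and CD1d-KO in red. The 9 B cell genes spread from 138.5 to 1061 while the macrophage markers sum to between 21430 and 27900, most of it *Lyz2*. Single macrophage markers can vary more, as *Fcgr1* runs from 5.03 normalized CPM in WT replicate 1 to 215 in CD1d-KO replicate 3. T and NK cell, neutrophil, eosinophil and mesothelial markers reach at most 13.4.

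Ratios to *Cd79a* were steadier than levels for most genes. Relative to *Cd79a*, the SD of the log2 ratio over the 8 libraries was 0.08 for *Pax5*, 0.10 for *Cd79b*, 0.19 for *Cd22* and 0.21 for *Ighm*, and it was 0.31 for *Ms4a1* and *Ighd* and 0.36 for *Igkc*. Counts of *Pax5* were between 53.0% and 62.9% of those of *Cd79a* in every library, although *Cd79a* itself varied 8.37-fold. *Fcer2a* stood apart with an SD of 0.92. Its count was between 2.48% and 5.32% of the summed count of *Fcer2a* and *Cd79a* in 7 libraries. In CD1d-KO replicate 5, with 8 counts against 1089, the share was 0.73% (Wilson 95% interval 0.37% to 1.43%). That interval lies below those of the other 7 libraries, of which the lowest, WT replicate 1, began at 1.67%. Among the other genes, *Igkc* ran from 130.2% to 247.3% of *Cd79a*, *Ms4a1* from 53.8% to 95.7% and *Ighd* from 22.8% to 42.8%. *Ighd* took 2.96% to 6.67% of the summed count of *Ighm* and *Ighd*, with the highest share in the library labelled CD1d-KO replicate 1 and the lowest in CD1d-KO replicate 2.

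**Figure D5:**
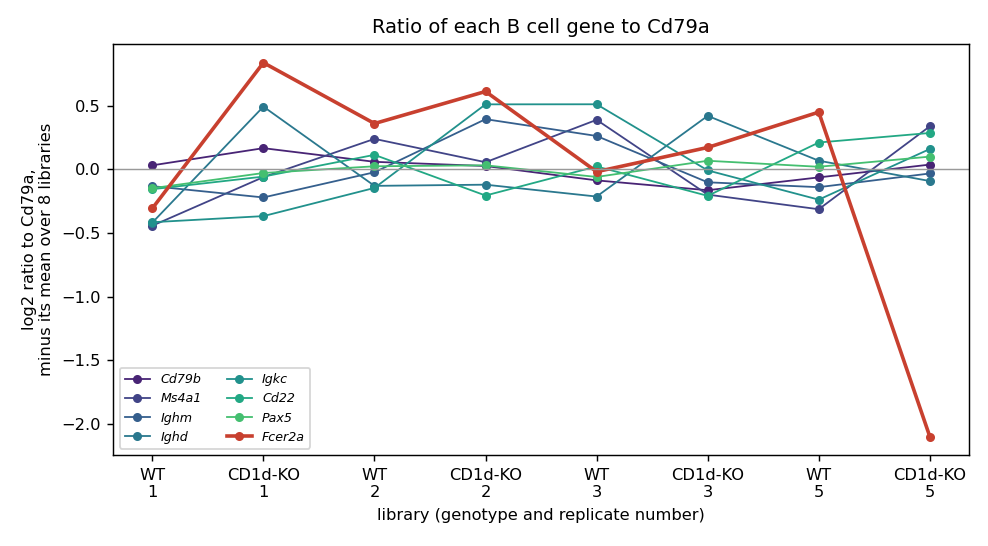
Log2 ratio of each B cell gene to *Cd79a* in each library, minus the mean of that ratio over the 8 libraries. Lines join the libraries of 1 gene and have no order in time. *Fcer2a* (red, SD 0.92) lies far below the other genes in CD1d-KO replicate 5, while the other 7 lines have SDs of 0.08 to 0.36.

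Heavy chain constant regions were almost all *Ighm*, which took 92.1% to 96.1% of heavy chain constant counts. The switched isotypes (*Ighg1*, *Ighg2b*, *Ighg2c*, *Ighg3*, *Igha* and *Ighe*) together took between 0.71% (Wilson 95% interval 0.54% to 0.92%) in CD1d-KO replicate 5 and 2.23% (1.54% to 3.23%) in CD1d-KO replicate 2. *Jchain*, the joining chain of secreted IgM made by plasma cells, had 0 to 7 counts per library. *Rag1* and *Rag2*, which rearrange immunoglobulin genes in B cell progenitors, had 0 counts in all 8 libraries, where a count of 0 allows up to 3 counts per library.

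Many other genes of the B cell programme were, like the 9 genes, lowest in replicate 2 within each genotype, which 9.79% of all tested genes were. That pattern, noticed in these values, held for 15 of the 16 genes for receptor signalling and coreceptors. Of these 16, 12 had an adjusted p under 0.05 for replicate number from edgeR, a test without direction (15.6% of all genes), and 4 under 0.01 (3.93%). For genotype 0 were called (0.0383% of all genes). *Blk*, a kinase of the Src family in B cells, had 16.5, 5.62, 12.5 and 17.0 normalized CPM in WT replicates 1, 2, 3 and 5 and 21.0, 3.62, 15.7 and 30.9 in CD1d-KO replicates 1, 2, 3 and 5, which puts it low in replicate 2 and high in CD1d-KO replicate 5 as for *Cd79a*. All 7 transcription factors of the B lineage were lowest in replicate 2 of each genotype. They had an adjusted p under 0.05 for replicate number in 7 of 7 cases and under 0.01 in 3, among them *Ebf1*, which acts upstream of *Pax5* and had 2.29 to 19.4 normalized CPM (adjusted p = 0.00403 for replicate number from edgeR). Genotype called 0 of these 7 genes as well.

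Some genes of the receptor list followed less closely. *Cd37* (114.5 to 161 normalized CPM), *Cd180* (50.4 to 181) and *Blnk* (19.1 to 58.5) are also expressed by macrophages. *Cd37* varied 1.404-fold between the libraries, and *Cd180*, the exception among the 16, was lowest in WT replicate 1. *Blnk*, the adaptor downstream of the receptor, was lowest in replicate 2 of each genotype and was higher in CD1d-KO in 4 of 4 pairs (log2 fold change 0.57, standard error 0.11) with an adjusted p of 0.101 from edgeR, and was not called.

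Of 8 genes associated with B-1 cells, 6 were lowest in replicate 2 of each genotype (9.79% of all genes). An adjusted p under 0.05 for replicate number from edgeR was found for 4 (15.6% of all genes), and 0 were called for genotype (0.0383%). *Zbtb32* (1.48 to 7.09 normalized CPM), *Fcrl5* (1.26 to 10.1) and *Spn*, which encodes CD43 (2.64 to 9.49), were among the 4. The fourth, the transcription factor *Arid3a* (18.4 to 36.9), went the other way and was highest in replicate 2 of each genotype, at 36.9 in WT and 29.6 in CD1d-KO pMacs. *Cd5*, the surface marker of B-1a cells, had 0.52 to 1.97 normalized CPM with its lowest value in CD1d-KO replicate 2. *Cd9* (452 to 720) varied 1.59-fold between the libraries, and the genotypes differed in replicate 2. Among CD1d-KO libraries replicate 2 was highest, at 611 normalized CPM. Among WT libraries it was lowest, at 553.0 against 553.4 in replicate 3. What part of the *Arid3a* and *Cd9* transcripts came from B cells was not tested.

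MHC class II genes, which B cells and some macrophages both express, moved in part with the B cell genes. Lowest in replicate 2 of each genotype were 5 of 8, against 9.79% of all genes. For replicate number, 7 of 8 had an adjusted p under 0.05 from edgeR (15.6% of all genes) and 1, *Ciita*, under 0.01 (3.93%). *Ciita*, the master regulator of the class II genes, had 20.7, 6.93, 14.6 and 30.2 normalized CPM in WT replicates 1, 2, 3 and 5 and 26.7, 4.65, 15.8 and 35.8 in the CD1d-KO libraries. *Cd74*, the invariant chain, had 343 to 1418 normalized CPM, the lowest in CD1d-KO replicate 2 and the highest in CD1d-KO replicate 5. What part of the class II transcripts came from B cells was not tested.

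The tested genes most like the 9 members were ranked by Pearson's r of log2 CPM with the mean of the members over the 8 libraries, among 13031 genes. The first 10 included *Btla*, *Spib*, *Acap1*, *Bank1*, *Sesn3*, *Ciita*, *Iglc2*, *Stk38* and *Blk*, with r from 0.998 to 0.984. On the lists of markers and pathways were 7 of them, *Ciita* only as an MHC class II gene. The other 3 were *Acap1* (1.18 to 8.65 normalized CPM), *Sesn3* (12.6 to 31.3) and *Stk38* (67.1 to 104.7). All 8 points share their libraries with the members, and r is given as a description.

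Other cells of the cavity were looked for with marker lists. T and NK cell markers summed to 3.23 to 9.54 CPM, of which *Lck* gave the largest part, while *Ncr1* was at 0 in all libraries and each of *Cd3e*, *Cd3d*, *Cd3g* and *Trac* stayed below 1 CPM. *Lck* (1.55 to 6.03 normalized CPM) was the only 1 of the 14 markers that passed the filter, and its lowest and highest libraries were those of *Cd79a*. Neutrophil markers summed to 3.53 to 7.67 CPM, with *Ly6g* at 0 in all libraries. Eosinophil markers summed to 4.98 to 13.4 CPM, highest in CD1d-KO replicate 5, with *Ear6* at 0. The largest part there was *Il5ra*, at 7.73 normalized CPM against 0.52 in CD1d-KO replicate 2, and it followed the 9 B cell genes (r = 0.942). Mesothelial markers summed to at most 0.91 CPM, with *Krt19* at 0. Mast cell markers summed to 26.9 to 194.5 CPM, most of it from *Hdc*, and dendritic cell and small macrophage markers to 40.7 to 92.0 CPM. In each of the 8 libraries the 9 B cell genes summed to more than any of these 6 lists. That margin was narrowest in CD1d-KO replicate 2, where the 9 genes summed to 138.5 CPM and the mast cell markers to 128. There *Hdc* had 129.9 normalized CPM and the next mast cell marker, *Tpsb2*, had 1.77, so that sum was nearly all 1 gene. None of these lists had a gene called for genotype (0.0383% of all genes), and the part of other cells in the levels of the 9 genes was not tested.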

How the data were processed

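RNA of 8 pMac samples (4 WT, 4 CD1d-KO) was sequenced as single-end reads. The authors trimmed reads with Cutadapt, used STAR 2.5.2a for alignment to GRCm38, and quantified Ensembl genes by RSEM 1.3.0. The deposited expected counts are estimated reads per gene, not normalized, and the deposited TPM values are scaled by the authors to gene length and library. RSEM divides reads that match several genes, and whether counting used strand is not given in the sources used here. Here expected counts were rounded and filtered with filterByExpr of edgeR 4.0.16 (R 4.3.3), which kept 13040 genes. They were normalized by TMM and tested with glmQLFTest on a model of genotype and replicate number, as in the design of the study, with Benjamini-Hochberg adjustment. The standard error given for a log2 fold change was derived as its absolute value over the square root of the F statistic. Calls for genotype needed a fold change above 1.5 with an adjusted p under 0.01, and those for replicate number, a joint test of its 3 terms, at an adjusted p under 0.01. DESeq2 1.42.0 and limma 3.58.1 on log2(TPM + 1) were alternatives, as were other size factors, filters, thresholds, the fit without replicate block and fits that left out 1 replicate or library. Scripts were tested on simulated data.

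Replicate numbers pair the libraries: deviations from the genotype means correlated with r of 0.487, 0.387, 0.505 and 0.207 between same-numbered libraries 1, 2, 3 and 5, against at most -0.015, 0.025, 0.059 and 0.22 with another number. The pairing comes from the labels' numbers and this check, and number 5 correlated slightly more with another number than with its own. Of 28 pairs of libraries, none were duplicates (smallest chi-square per degree of freedom 13.2). The study describes controls as littermates, and no source ties a replicate number to a litter or a day. With replicate number as block, p-values for genotype rest on the spread of the differences within the numbered pairs of these 8 mice. Those of fits without the block rest on the spread between the mice of a genotype. Named genes are the 9 members, the genes of 16 lists of markers and pathways, *Cd1d1*, *Cd1d2*, and the 10 tested genes with the highest Pearson's r to the members, and variable segments were added after their counts were seen. The members and lists were chosen with earlier results of these data known. Symbols were matched to 99.1% of identifiers from a GRCm38 annotation, which also gave the segment sequences. Wilson intervals are at the 95% level and a count of 0 allows up to 3 counts. One gene of the lists is not reported here.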

Additional observations from a re-analysis of the deposited data

Results flagged for a closer look

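Of 32 groups of 4 libraries examined, 1 held a library far from the other 3, where chance marks about 1 in 20. *Cd1d1*, the gene that the CD1d-KO mice lack, had 3.91 normalized CPM in the library labelled CD1d-KO replicate 1 and 0 to 0.074 in the other 3 CD1d-KO libraries. In the WT libraries it had 4.40 to 11.3 normalized CPM. In that library the 9 B cell genes summed to 716 CPM, between the 380 of CD1d-KO replicate 3 and the 1061 of CD1d-KO replicate 5. That sum lay above those of the WT libraries, which ran from 216 to 627 CPM. Whether its label is right was not tested.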

How the results depend on the processing

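None of 20 alternatives called any of the 9 genes for genotype, and over them the adjusted p of a member ranged from 0.065 to 1. Of 179 log2 fold changes of members, 149 kept the sign reported. Those that turned, none of them called, were *Cd22* with DESeq2 (-0.057) and with limma on TPM (-0.0029), *Pax5* with limma on TPM (-0.14), *Fcer2a* with no replicate block (0.13), and 26 of fits that left out a replicate or library. Over the latter fits, with and without the block, log2 fold changes ranged from -0.14 to 0.61 for *Cd79a*, -0.088 to 0.67 for *Cd79b*, -0.23 to 0.81 for *Ms4a1*, -0.23 to 0.53 for *Ighm*, -0.20 to 0.65 for *Igkc*, -0.31 to 0.64 for *Cd22*, -0.078 to 0.71 for *Pax5*, and -0.77 to 0.55 for *Fcer2a*, and *Ighd* stayed above 0 (0.23 to 0.999). The count of all genes called for genotype was 5 and became 104 with DESeq2, 236 with no filter, 53 at an adjusted p under 0.05 without a fold threshold, 3 with limma, 3 with no replicate block, and 3 to 22 without 1 replicate (22 without replicate 2, and 3 without replicate 3 or 5) or 3 to 6 without 1 library and block. For replicate number, 0 of 9 members were called, against 2 with upper quartile factors (3.8% of all genes), 8 with no filter (8.87%), 2 with at least 10 counts in every library (5.87%), 7 at an adjusted p under 0.05, and 0 to 1 without 1 replicate (1 without replicate 5, 3.08% of all genes). All genes called for replicate number numbered 513, and 200 with DESeq2, 2250 with no filter, 2031 at an adjusted p under 0.05, and 0 to 734 without 1 replicate (47 without replicate 1, 0 without replicate 3). The cause of these changes was not tested. The block changed no call of a member for genotype. The mean log2 ratio of the summed genes ranged from -0.19 without replicate 5 to 0.27 without replicate 2, and that of the B cell to macrophage ratio from -0.10 to 0.49 without 1 replicate and from -0.43 (markers of large peritoneal macrophages) to 0.20 with other marker genes, all within the SD over pairs of the value reported. Leaving out 1 pair moved the difference in *Ighv11-2* share between -4.07 (without replicate 5) and 6.56 points (without replicate 3), and that of *Igkv14-126* between -4.88 and 5.43. Depth limits *Fcer2a*, with 6 to 64 counts per library.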

Other observations

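Lambda light chains, which the 9 genes do not cover, took 7.39% (Wilson 95% interval 5.53% to 9.80%) of light chain variable counts in WT replicate 3 and 12.0% (10.3% to 13.98%) in CD1d-KO replicate 5, the libraries in which *Igkv14-126* was highest. In the other 6 libraries the share was 14.7% to 23.9%. The counts of *Igkv14-126* are part of the denominator, so a high count on it lowers the lambda share by itself. Of 13 genes for immunoglobulin constant regions and the joining chain, 8 passed the filter, and 5 had an adjusted p under 0.05 for replicate number from edgeR (15.6% of all genes). Of these, 1, *Iglc3* (1.18 to 10.1 normalized CPM, adjusted p = 0.00974 from edgeR), was under 0.01 (3.93% of all genes). *Iglc2*, one of the lambda constant genes, was among the 10 genes most like the 9 B cell genes.

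Genes shared by plasma cells and macrophages went different ways. Of 6 plasma cell genes, 4 passed the filter and 3 had an adjusted p under 0.05 for replicate number from edgeR (15.6% of all genes). *Sdc1*, which encodes CD138, was highest in both replicate 2 libraries, at 28.4 normalized CPM in WT and 32.6 in CD1d-KO, where the 9 B cell genes were lowest (adjusted p = 0.00678 for replicate number from edgeR). *Irf4* had its lowest value in CD1d-KO replicate 2 (34.2 normalized CPM) and its highest in CD1d-KO replicate 5 (106), as the B cell genes did (adjusted p = 0.00903 for replicate number from edgeR). Of 7 genes of B cell progenitors only *Il7r* passed the filter, with 2.79 to 11.5 normalized CPM and an adjusted p of 0.0917 for replicate number from edgeR. Of the 8 macrophage markers 4 had an adjusted p under 0.05 for replicate number from edgeR, and of the 10 markers of large peritoneal macrophages 0 (15.6% of all genes).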
